A study of Mus musculus with 42 samples.

Results

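Hox genes encode homeodomain transcription factors that lie in 4 clusters in the mouse and are numbered by paralogue group from 1 to 13 along each cluster. Genes with low numbers are used in the anterior body and those with high numbers in the posterior trunk and limbs, so that the combination a cell transcribes records where along the body axis it arose, and muscle and connective tissue cells of the adult are known to retain such a combination. Silent Hox genes are classically covered by H3K27me3, the mark placed by Polycomb repressive complex 2, whereas active ones lose it and gain H3K4me3 and H3K27Ac. All 39 genes of the Hoxa (11 genes), Hoxb (10), Hoxc (9) and Hoxd (9) clusters were taken by symbol out of the 24466 genes counted in the RNA-seq files. No expression value decided which genes of the clusters were included, but the family was chosen with earlier results of these data known.

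RNA-seq covered 8 libraries of 3 populations. iPax7 cells are mouse embryonic stem cells carrying a doxycycline (Dox)-inducible Pax7 transgene, from which PDGFαR+Flk-1- myogenic precursors were sorted and expanded. They were grown with 0.75 µg/ml Dox (+Dox, 3 libraries) or sampled 3 days after Dox was withdrawn (-Dox, 2 libraries), and all iPax7 samples come from 1 engineered line. Satellite cells, the resident stem cells of skeletal muscle, were isolated directly from muscle of Pax7-ZsGreen reporter mice (3 libraries); their age and the muscles used for RNA are not given in the sources used here, whereas hind limb is named for the ATAC-seq sample. Chromatin was read in 10 ATAC-seq peak lists, which mark accessible DNA, and in 16 histone region lists. The ATAC-seq lists are from iPax7 cells with Dox, at 12 h, 24 h and 3 days without it and as myotubes, from satellite cells, and from C2C12, an established mouse myoblast line, as untagged myoblasts, as myoblasts with a flag control or with Pax7-flag, and as myotubes. The histone lists are from +Dox and -Dox (3 days) iPax7 cells and from the flag control and Pax7-flag C2C12 myoblasts. No source says that the RNA libraries came from separate cultures or animals, so the p-values measure the spread between these libraries, which may be technical.

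The libraries held 39010958 to 54674619 counts on genes. Pax7 averaged 271 CPM (counts scaled to a common library total) in +Dox, 5.18 in -Dox and 126 in satellite cells, with the 2 -Dox libraries below all others. All 11 satellite cell markers had counts in every satellite cell library, with summed levels of 16368 to 26079 CPM against 4032 to 5667 in +Dox and 1104 to 1182 in -Dox. The satellite cell libraries also held RNA of other cells of muscle. All 5 endothelial markers had counts in each of them (289 to 423 CPM in sum, against 0.11 to 3.52 in +Dox and 0.0194 to 0.468 in -Dox), as did all 6 mesenchymal (922 to 1363, against 56.6 to 206 and 49.2 to 50.8), all 3 tendon (23.7 to 36.3, against 1.97 to 3.68 and 3.93 to 4.14) and all 4 glial markers (40.2 to 68.1, against 0.349 to 1.22 and 0.0195 to 1.94), and 2 of 5 blood markers (13.1 to 55.3, against 3.33 to 9.8 and 3.83 to 4.35). Single markers went the other way from their sums, among them Ly6a at 107 CPM in +Dox and 55.5 in satellite cells. Scx had 2.11 CPM in +Dox, 3.57 in -Dox and 0.373 in satellite cells. Of the satellite cell list, Pax7 and Myf5 (3043 CPM in +Dox and 2596 in satellite cells) were higher in +Dox. Sdc4, with a mean of 13843 CPM in satellite cells, made up most of the sum of that list there. Of the defining markers, Ptprc, Tnmd and Sox10 had no count in any iPax7 library, Pecam1 had 1 count in a +Dox and 23 in a -Dox library, and Pdgfra had 2 in a +Dox library. The 8 myofibre markers summed to 140 to 163 CPM in +Dox, 32855 to 33841 in -Dox and 178 to 314 in satellite cells. Myog (87.8 CPM in +Dox and 51.8 in satellite cells) and Tnnt3 (17.3 and 12.8) went the other way between +Dox and satellite cells. The neural list summed to 36.6 to 57.7 CPM in +Dox, 241 to 257 in -Dox and 5.15 to 9.29 in satellite cells, mostly Nes in the iPax7 cells, with Sox1 at 0 throughout. The pluripotency list summed to at most 0.924 CPM in any library, with Pou5f1 at 0 throughout. The part of these cell types in the Hox values below was not tested, and in bulk RNA fewer cells of a type and less RNA per cell cannot be told apart.

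The sequences just upstream of 2 start sites are shown because they stand for different patterns: Hoxa10 had counts in satellite cells and none in iPax7 cells, and Hoxd8 was detected in every library. Each run is the 250 bases before the annotated start in NCBIM37 (mm9), written 5′ to 3′ on the strand of the gene, with CpG dinucleotides in capitals. The runs span chr2:74542712-74542961 (plus strand) for Hoxd8 and chr6:52184939-52185188 (minus) for Hoxa10.
Hoxd8: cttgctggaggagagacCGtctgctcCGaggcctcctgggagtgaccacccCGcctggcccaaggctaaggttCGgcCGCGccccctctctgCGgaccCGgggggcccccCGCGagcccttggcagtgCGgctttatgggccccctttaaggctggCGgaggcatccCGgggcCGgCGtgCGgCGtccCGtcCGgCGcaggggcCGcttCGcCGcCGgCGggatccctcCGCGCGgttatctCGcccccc
Hoxa10: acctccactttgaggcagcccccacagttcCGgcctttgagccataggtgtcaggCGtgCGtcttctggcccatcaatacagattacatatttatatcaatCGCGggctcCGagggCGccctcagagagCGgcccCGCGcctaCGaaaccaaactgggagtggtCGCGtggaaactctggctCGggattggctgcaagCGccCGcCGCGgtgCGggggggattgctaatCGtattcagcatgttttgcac
Both were rich in CpG, with 29 in Hoxd8 and 20 in Hoxa10. The median over the 39 Hox genes was 13, with a range from 1 to 42, and the median over 21538 protein-coding genes was 9. The letters CCAAT, on either strand, lay in 22 of the 39 Hox stretches and in 34.5% of all stretches. TATAAA lay in 3 Hox stretches (Hoxa10, Hoxc12 and Hoxd13) and in 12.3% of all. GGGCGG lay in 18 and in 40.7% of all. The homeodomain core TAATTA lay in 1 Hox stretch and in 4.43% of all, and TGATTNAT, a form of the joint Pbx and Hox site, in 1 and in 2.5% of all. These 5 motifs do not contain one another, and a match is a description of the letters only.

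The 3 populations transcribed different Hox genes. In +Dox cells 1 of the 39 genes, Hoxb9, reached 1 RPKM (the CPM divided by the exon length in kilobases) in every library, and 30 had no count in any. In -Dox cells there were 2, Hoxb9 among them, and 30 again had no count. In satellite cells there were 7, Hoxa5, Hoxa7, Hoxa9, Hoxa10, Hoxc8, Hoxc10 and Hoxd8, and 8 had no count. All 9 Hoxc genes were at 0 in all 5 iPax7 libraries. At these depths 3 counts over the group correspond to 0.0168 CPM in +Dox, 0.0292 in -Dox and 0.028 in satellite cells, which is the level that a gene without counts could still have had, counting error only. Hoxa13, Hoxb1, Hoxb13, Hoxc12, Hoxc13, Hoxd11 and Hoxd12 had no count in any of the 8 libraries.

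**Figure D1:**
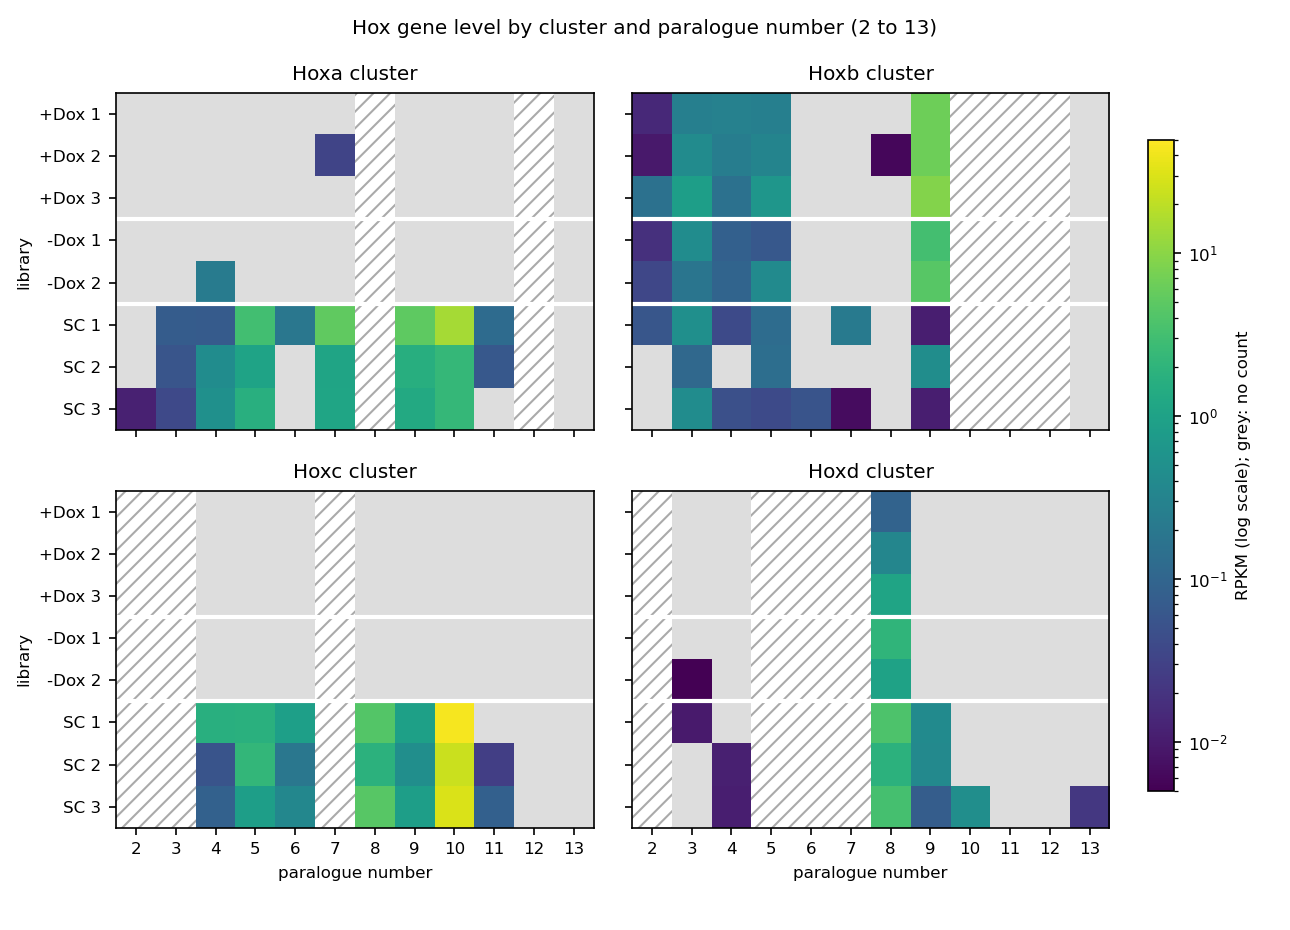
Level of the Hox genes of paralogue numbers 2 to 13 in RPKM (colour, log scale) by paralogue number (horizontal axis) and library (vertical axis), with 1 panel per cluster. Grey marks a gene without counts and hatching a number that the cluster lacks. The Hoxc panel is grey in all 5 iPax7 libraries and filled from number 4 to 10 in the 3 satellite cell libraries.

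Summed over genes per length, the clusters took unlike shares in the 3 populations. Hoxb held 90.1 to 93.4% of the Hox RPKM of a library in +Dox, 34.2 to 46.9% in -Dox and 1.11 to 1.83% in satellite cells. Hoxa held 1.02 to 5.45% in +Dox, 44.2 to 46.8% in -Dox and 14.6 to 32.7% in satellite cells. Hoxc held 61.3 to 75.8% in satellite cells and Hoxd 4.89 to 8.28%. The total over all Hox genes was 7.89 to 12.2 RPKM in +Dox, 10.9 to 11.2 in -Dox and 38.6 to 86.2 in satellite cells, the highest of these in replicate 1. By paralogue group, numbers 9 to 13 held most of the sum in both +Dox (75.3 to 82.8%) and satellite cells (72.3 to 76.3%), against 28.7 to 40.4% in -Dox. The posterior share rested on a single gene in iPax7 cells, Hoxb9, and mainly on Hoxc10, Hoxa10 and Hoxa9 in satellite cells.

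Satellite cells were compared with +Dox cells to ask how far the Hox code of the cultured precursors resembled that of muscle stem cells. Of the 18 Hox genes with enough counts to be tested, 13 were higher in satellite cells and 2 were lower (edgeR's quasi-likelihood test, Benjamini-Hochberg adjusted p under 0.05 and at least 2-fold). Over all 14836 genes tested 23.9% were called higher and 18.2% lower. The 13 were 6 genes of Hoxa, 5 of Hoxc and 2 of Hoxd, and Hoxb9 was among the 2. Of the 13, 10 had no count in any iPax7 library and so entered the test through the satellite cells alone. A difference in that direction was then inevitable. Hoxa4 and Hoxa7 had counts in only 1 iPax7 library each and also passed the filter through the satellite cells. The share of 13 in 18 and the median below therefore describe only which genes were transcribed. The median log2 fold change over all genes tested was 0.17, and over the 18 Hox genes it was 5.69 with genes at 0 set to their lower bound.

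Hoxc10, a posterior gene known for its use in the hind limb and lumbar region, was the most abundant Hox gene of satellite cells. Its levels were 82.9, 46.15 and 55.78 CPM in the 3 replicates, or 32.3 ± 9.98 RPKM (SD, n = 3), and it had no count in +Dox or -Dox. Against 3 counts over the group this is at least 3671-fold higher than +Dox (edgeR quasi-likelihood adjusted p = 4.19e-05) and at least 2109-fold higher than -Dox (adjusted p = 0.000129 in the same fit). Every satellite cell library lay above every iPax7 library by a wide margin.

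Hoxa10, another posterior gene of the limb and lumbar region, had a mean of 6.28 ± 6.95 RPKM (SD, n = 3), second in order through replicate 1 alone. Replicate 1 held 54.9 CPM and replicates 2 and 3 held 8.70 and 8.73, so the SD exceeds the mean, and without replicate 1 the mean of 2.27 RPKM lies below those of Hoxc8 (3.21) and Hoxd8 (2.61). It was at least 1437-fold higher than in +Dox (edgeR quasi-likelihood adjusted p = 0.00105), a bound of 519-fold without replicate 1. The call remained in each fit that left out a satellite cell library. Hoxa9, its neighbour, was also highest in replicate 1, with 17.54, 5.61 and 4.63 CPM, and was at least 552-fold higher, or 305-fold without replicate 1 (edgeR quasi-likelihood adjusted p = 0.00108 with all libraries). Hoxa7 had 15.14, 3.17 and 3.26 CPM in satellite cells against 6 counts in a single +Dox library (log2 fold change 7.69, SE 1.67, edgeR quasi-likelihood adjusted p = 0.00646), and its log2 fold change was 6.55 without satellite cell replicate 1 and 11.35 without the +Dox library, replicate 2, that held those counts. Hoxa5 had 5.82, 1.98 and 3.10 CPM (at least 216-fold higher, edgeR quasi-likelihood adjusted p = 0.00308). Replicate 1 was thus the highest of the 3 for Hoxa5, Hoxa7, Hoxa9 and Hoxa10.

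The lower-numbered Hoxa members were weaker. Hoxa3 had 17, 13 and 9 counts in satellite cells and Hoxa4 had 4, 25 and 29, with 19 counts of Hoxa4 in -Dox replicate 2. Both were called higher than in +Dox (edgeR quasi-likelihood adjusted p = 0.0341 for Hoxa3 and 0.0412 for Hoxa4). Neither call is firm. That of Hoxa3 was lost when any +Dox or -Dox library, or satellite cell replicate 1 or 2, was left out, and that of Hoxa4 when any +Dox library, -Dox replicate 2, or satellite cell replicate 2 or 3 was left out, with adjusted p (edgeR or DESeq2) of up to 0.103 and 0.0846 over all their alternatives. Hoxa3 shares annotated territory with Hoxa4, Hoxa5 and Hoxa6, where reads can be split or set aside as ambiguous.

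Within Hoxc, Hoxc8, a gene of the thoracic region, had 9.63, 4.28 and 10.46 CPM (at least 484-fold higher than +Dox, edgeR quasi-likelihood adjusted p = 0.000826). Hoxc5 had 5.09, 6.43 and 2.57 CPM and Hoxc9 2.25, 1.16 and 2.12 CPM, with bounds of 280-fold and 110-fold (edgeR quasi-likelihood adjusted p = 0.00187 and 0.00713). Hoxc6 had 2.23, 0.482 and 0.892 CPM, a bound of 71.5-fold, or 40.9-fold without replicate 1 (edgeR quasi-likelihood adjusted p = 0.0147). Hoxc4 did not pass the filter, since its 154, 5 and 8 counts lay almost wholly in replicate 1. Per length, Hoxc10 stood at least 3 times above every other Hox gene in each satellite cell library, and the next genes, Hoxa10 (6.28 ± 6.95 RPKM), Hoxc8 (3.53 ± 1.46), Hoxd8 (3.01 ± 1.01), Hoxa9 (2.65 ± 2.06), Hoxa7 (2.50 ± 2.39), Hoxa5 (1.94 ± 1.05) and Hoxc5 (1.61 ± 0.672), each overlapped the neighbour in that order within 1 SD (n = 3).

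Hoxd8, a central gene with counts in all 8 libraries, had 0.254, 0.940 and 2.96 CPM in +Dox, 5.71 and 2.73 in -Dox and 10.41, 5.13 and 9.20 in satellite cells. The +Dox and satellite cell libraries did not overlap, while -Dox overlapped with both. It was 2.57 log2 units higher in satellite cells than in +Dox (SE 0.89, edgeR quasi-likelihood adjusted p = 0.0402). The call was lost without +Dox replicate 1 or 2, without either -Dox library and without satellite cell replicate 1 or 3, with an edgeR adjusted p of up to 0.123, and the log2 fold change was 3.78 without +Dox replicate 3. Hoxd9 had 32, 29 and 6 counts in satellite cells and none in iPax7 cells (at least 37.3-fold higher than +Dox, edgeR quasi-likelihood adjusted p = 0.026), a call lost without +Dox replicate 1 or 2. Hoxd10 had 45 counts in satellite cell replicate 3 alone and was not tested, and the other untested members held at most 33 counts in any library apart from Hoxc4.

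Among the genes lower in satellite cells was the leading Hox gene of +Dox cells. Hoxb9, a posterior gene of the thoracic region, had 16.82, 16.76 and 23.63 CPM in +Dox (7.41 ± 1.53 RPKM, SD, n = 3), 8.06 and 11.67 CPM in -Dox and 0.0278, 1.16 and 0.0279 CPM in satellite cells. It was lower in satellite cells than in +Dox (log2 fold change -5.55, SE 1.22, edgeR quasi-likelihood adjusted p = 0.0055), with no overlap between libraries. Its satellite cell counts were 1, 41 and 1, so that replicate 2 decides the mean there, and without it the log2 fold change was -9.29. The Hoxb genes with lower numbers were weak everywhere, and Hoxb3, Hoxb4 and Hoxb5 had 33 to 134 counts in +Dox libraries, 9 to 68 in -Dox and 0 to 53 in satellite cells. None of the 3 passed the test between satellite cells and +Dox, with log2 differences of -0.57 (SE 1.02) for Hoxb3, -2.96 (SE 1.5) for Hoxb4 and -1.97 (SE 1.23) for Hoxb5 and edgeR quasi-likelihood adjusted p of 0.68, 0.133 and 0.218. Hoxb2 had 2 to 27 counts in iPax7 libraries and was not tested.

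**Figure D2:**
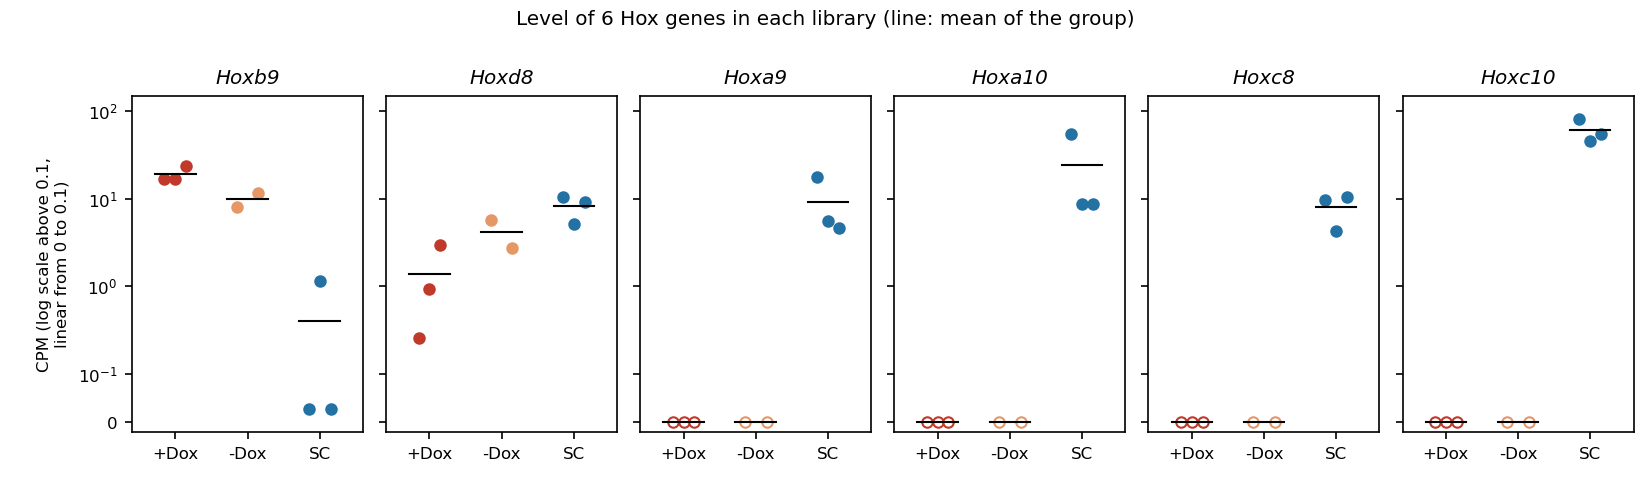
Level of 6 Hox genes in CPM (vertical axis, logarithmic above 0.1 and linear below) in each library of +Dox, -Dox and satellite cells (SC); points are libraries, open points have no count and lines are group means. Hoxb9 lies high in iPax7 cells, whereas Hoxa9, Hoxa10, Hoxc8 and Hoxc10 have counts in the 3 satellite cell libraries and no count in the 5 iPax7 libraries.

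Removal of Dox was examined to see which Hox genes changed once Pax7 was lost. Of the 18 genes tested, 1 rose, against 4.63% of all genes tested, and 0 fell, against 3.01% (edgeR quasi-likelihood; at an unadjusted p under 0.05, 2 were higher and 0 lower, and DESeq2 also called 1 and 0). The gene that passed only before adjustment was Hoxa4, through 19 counts in 1 library. With 3 against 2 libraries the count of 1 rests on all of them: it was 0 whenever any one of the +Dox or -Dox libraries was left out. Those of the 18 without a count in any iPax7 library had passed the filter through the satellite cells and could not be called here. The count is therefore not read against the share of all genes. With only the 2 conditions compared, 6 Hox genes were tested, of which 1 rose and 0 fell.

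The leading gene of +Dox cells, Hoxb9, did not pass the test after Dox removal. Its 2 -Dox libraries lay below all 3 +Dox libraries. The difference was -0.95 log2 units (SE 1.14, edgeR quasi-likelihood adjusted p = 0.727), short of the 2-fold needed for a call. The SEs here come from the fit over all 3 populations, so the spread between satellite cell libraries enters them. For Hoxb9 those libraries held 1, 41 and 1 counts, so its SE does not measure the iPax7 libraries alone. Hoxd8 differed by 1.61 log2 units (SE 0.929, edgeR quasi-likelihood adjusted p = 0.368) and overlapped between groups. Hoxb3, Hoxb4 and Hoxb5 differed by -0.73, -1.33 and -0.78 log2 units, each less than its SE of 1.16, 1.61 and 1.35. All genes of Hoxc, as well as Hoxa5, Hoxa9 and Hoxa10, stayed without a count.

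Against -Dox, 9 of 18 Hox genes were higher in satellite cells and 2 were lower, with 20.4% and 17.2% of all genes as background. The median log2 fold change was 0.23 over all genes and 4.89 over the 18 with genes at 0 set to their bound. Of the 9, 8 had no count in any iPax7 library and entered the test through the satellite cells alone. The other, Hoxa7, had counts in only 1 iPax7 library, of +Dox, and also passed the filter through the satellite cells. This fixes the direction of the count and of the median. This comparison shares its satellite cell libraries with the one against +Dox and its -Dox libraries with the one above. The 9 were Hoxa5, Hoxa7, Hoxa9, Hoxa10, Hoxc5, Hoxc6, Hoxc8, Hoxc9 and Hoxc10, with lower bounds from 41.1-fold (Hoxc6) to 2109-fold (Hoxc10), and each had no count in -Dox. Without satellite cell replicate 1 the bounds fell by over 1.5 times for Hoxa7 (246 to 110), Hoxa9 (317 to 175), Hoxa10 (825 to 298) and Hoxc6 (41.1 to 23.5). The calls of Hoxc6 and Hoxc9 were lost without either -Dox library, and that of Hoxc6 also without satellite cell replicate 1. Hoxb9 was lower in satellite cells (log2 fold change -4.60, SE 1.21, edgeR quasi-likelihood adjusted p = 0.0148), a call lost without -Dox replicate 2, and the log2 fold change was -8.34 without satellite cell replicate 2. Hoxd8, at 0.97 log2 units (SE 0.966), did not differ beyond the spread (edgeR quasi-likelihood adjusted p = 0.45). Hoxa3 and Hoxd9, without counts in -Dox, missed the threshold here (edgeR quasi-likelihood adjusted p = 0.0719 and 0.0572), as did Hoxa4 (log2 fold change 1.54, SE 2.2, edgeR quasi-likelihood adjusted p = 0.61).

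The chromatin of the clusters was then compared, each population having 1 region list built by the authors from merged replicates, so that these values carry no replicate error and no test. In +Dox cells H3K27me3 regions covered 95.5% of the Hoxa span (chr6:52105366-52210874), 84.7% of Hoxb (chr11:96055630-96229570), 97.2% of Hoxc (chr15:102751534-102867274) and 95.6% of Hoxd (chr2:74506367-74603200), against 3.45% of the genome. In -Dox cells the shares were 81.6, 64.2, 88.5 and 86.2%, against 2.48% of the genome. In both conditions Hoxb was the least covered cluster. C2C12 myoblasts with the flag control divided the clusters in another way: H3K27me3 covered 0.579% of Hoxa and none of Hoxc, but 90.2% of Hoxb and 90% of Hoxd. The genome share of that list was 4.9%. In C2C12 cells with Pax7-flag the shares of Hoxa, Hoxc, Hoxb and Hoxd were 10.1, 0, 93.4 and 93.7%, against 6.06% of the genome.

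H3K27Ac, a mark of active promoters and enhancers, lay in the 2 clusters of each list that had the lowest H3K27me3 shares. In +Dox cells, however, the H3K27me3 shares of Hoxa (95.5%) and Hoxd (95.6%) hardly differed. There H3K27Ac covered 9.65% of Hoxb (33 regions) and 1.08% of Hoxa (3 regions) with no region in Hoxc or Hoxd, against 2.75% of the genome. In -Dox cells it covered 2.87% of Hoxb (10 regions) and 1.21% of Hoxa (2 regions), against 1.85% of the genome. Hoxa thus lay below the genome share in both conditions. In C2C12 flag control cells it covered 44.5% of Hoxa and 59.9% of Hoxc with no region in Hoxb or Hoxd, against 3.44% of the genome. With Pax7-flag the shares were 42.9% and 57.6%, against 4.6%. The clusters acetylated in C2C12, Hoxa and Hoxc, were those that led the Hox RNA of satellite cells. No histone list of satellite cells was analysed here.

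ATAC-seq gave the clusters unlike shares as well. Peaks of satellite cells covered 15.5% of Hoxa (40 peaks), 10.5% of Hoxc (30 peaks), 5.63% of Hoxd (13 peaks) and 0.305% of Hoxb (2 peaks), against 1.57% of the genome. In +Dox cells the shares were 4.03% in Hoxa, 4.76% in Hoxb, 2.77% in Hoxc and 4.7% in Hoxd, with 2.43% of the genome, and 3 days after Dox withdrawal 6.89% of Hoxa, 2.74% of Hoxb, 4.13% of Hoxc and 10.1% of Hoxd, with 3.09% of the genome. In C2C12 flag control cells peaks covered 13.6% of Hoxa, 22% of Hoxc and 0.275% of Hoxd, and none lay in Hoxb, with 1.53% of the genome. Untagged myoblasts of the same line had 1.7% of Hoxa and 3.33% of Hoxc under peaks, with 0.646% of the genome, and C2C12 myotubes 8.2% and 8.57%, with 1.25%. The lists differ in length, from 42700 peaks in unmodified C2C12 myoblasts to 172103 in -Dox cells at 3 days, so shares are read beside the genome value.

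**Figure D3:**
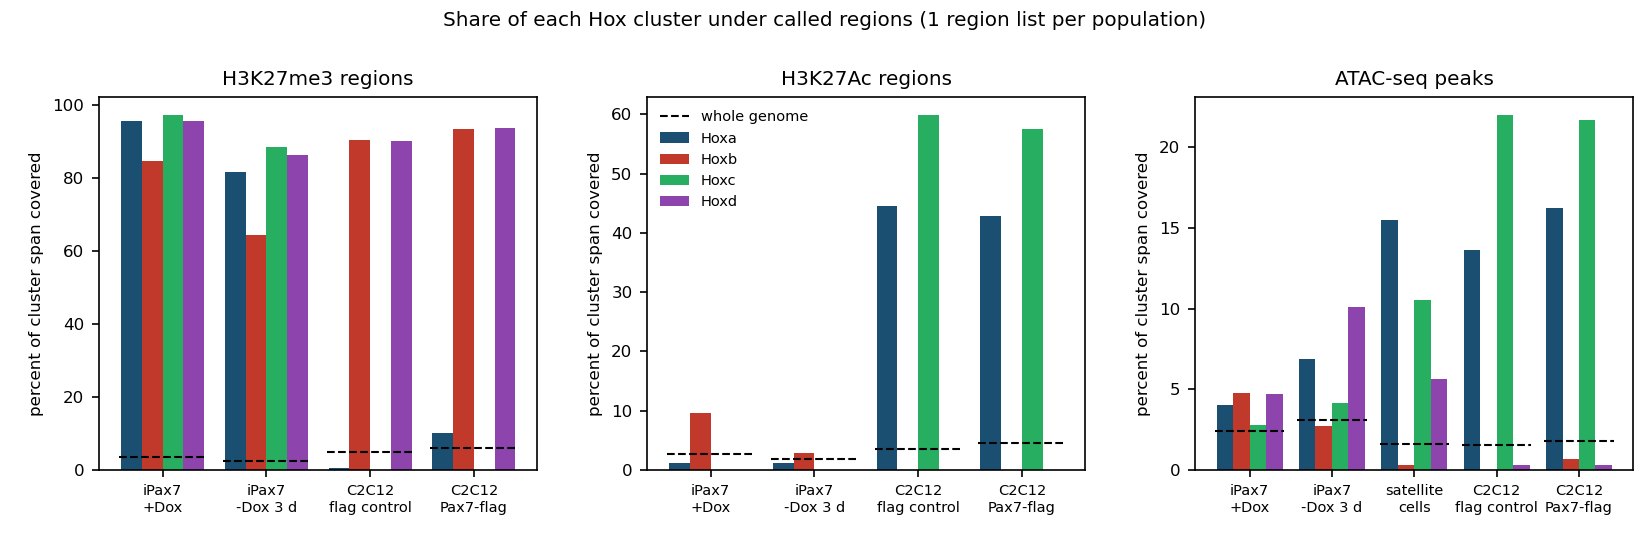
Percent of each Hox cluster span covered by called H3K27me3 regions, H3K27Ac regions and ATAC-seq peaks (vertical axes, from 0) in each population; bars are clusters, dashed lines the share of the whole genome, and no error bars are drawn because each population has 1 list. All 4 clusters stand above 60% for H3K27me3 in iPax7 cells, whereas in C2C12 cells only Hoxb and Hoxd do.

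At the start sites, taken as 1 kb on each side, all 39 Hox genes met an H3K27me3 region in +Dox and in -Dox cells (100%, 95% Wilson interval 91 to 100%), against 19.8% and 18.2% of 21542 protein-coding genes. H3K27Ac met 3 of 39 in either condition (7.69%, interval 2.65 to 20.3%), against 46.2% and 43.2% of all genes. Hoxb2 and Hoxb9 were among them, with 20% and 72.8% of the window covered in +Dox. H3K4me3 met 21 of 39 in +Dox and 31 of 39 in -Dox, against 58.3% and 64.2% of all, and those regions therefore lay on starts that also met H3K27me3. The H3K4me3 list held 94067 regions in +Dox and 214172 in -Dox, and the part of this in the counts was not tested. The intervals treat genes as independent and cover counting only.

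The Hoxb9 start held the largest H3K27Ac share of the 39 in +Dox cells. In +Dox cells H3K27Ac covered 72.8% of its window, H3K4me3 89.5% and ATAC-seq peaks 75.6%, and H3K27me3 still covered 76.3%. In -Dox cells H3K27Ac covered 16.1% and ATAC-seq peaks 66.2%, with H3K4me3 at 96.5% and H3K27me3 at 76.1%. At 12 h and 24 h without Dox ATAC-seq peaks covered 48.6% and 62.4%. In iPax7 myotubes no ATAC-seq peak met the Hoxb9 window, and in satellite cells 15.8% was covered.

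Genes of satellite cells differed in how their starts looked in iPax7 cells. The Hoxa10 window was 100% under H3K27me3 and without an ATAC-seq peak in +Dox, 12.3% was under ATAC-seq peaks at 3 days without Dox, and 39.7% was covered by ATAC-seq peaks in satellite cells. The Hoxc10 window was likewise 100% under H3K27me3 in +Dox, but ATAC-seq peaks covered 19.4% of it there against 44.1% in satellite cells. In the C2C12 line the share was 20.1% in untagged myoblasts, 100% with the flag control and with Pax7-flag, and 49.8% in myotubes. Its RNA was at 0 in every iPax7 library, so a peak at the start occurred without a count. Hoxd8 was 61.2% accessible in +Dox, 47.6% at 3 days without Dox and 54.5% in satellite cells, and had no ATAC-seq peak in any C2C12 list. Hoxc13, without a count in any of the 8 libraries, had the widest ATAC-seq cover of all Hox starts at 3 days without Dox, 90.6% of its window, against 42.8% in +Dox. Wide cover of this start was not particular to that condition. The share was 88.7% in C2C12 flag control cells, 83.6% with Pax7-flag, 77.1% in C2C12 myotubes, 30.5% in untagged myoblasts and 13.9% in satellite cells.

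Across the 39 starts, ATAC-seq peaks met 15 in +Dox (38.5%, against 60.2% of all genes) and 24 in satellite cells (61.5%, against 55.8%). Without Dox they met 10 at 12 h (25.6%, against 58.2%), 15 at 24 h (38.5%, against 61.4%) and 19 at 3 days (48.7%, against 62.7%). These 3 lists held 112586, 136638 and 172103 peaks, and the part of list length in the counts was not tested. By cluster, satellite cells had 10 of 11 starts in Hoxa, 1 of 10 in Hoxb, 7 of 9 in Hoxc and 6 of 9 in Hoxd. In satellite cells all 7 genes at 1 RPKM or more in every library met a peak, as did 15 of 24 genes with counts below that level and 2 of the 8 without a count. In +Dox cells 11 of the 30 genes without a count met a peak, while none of these 30 met H3K27Ac.

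**Figure D4:**
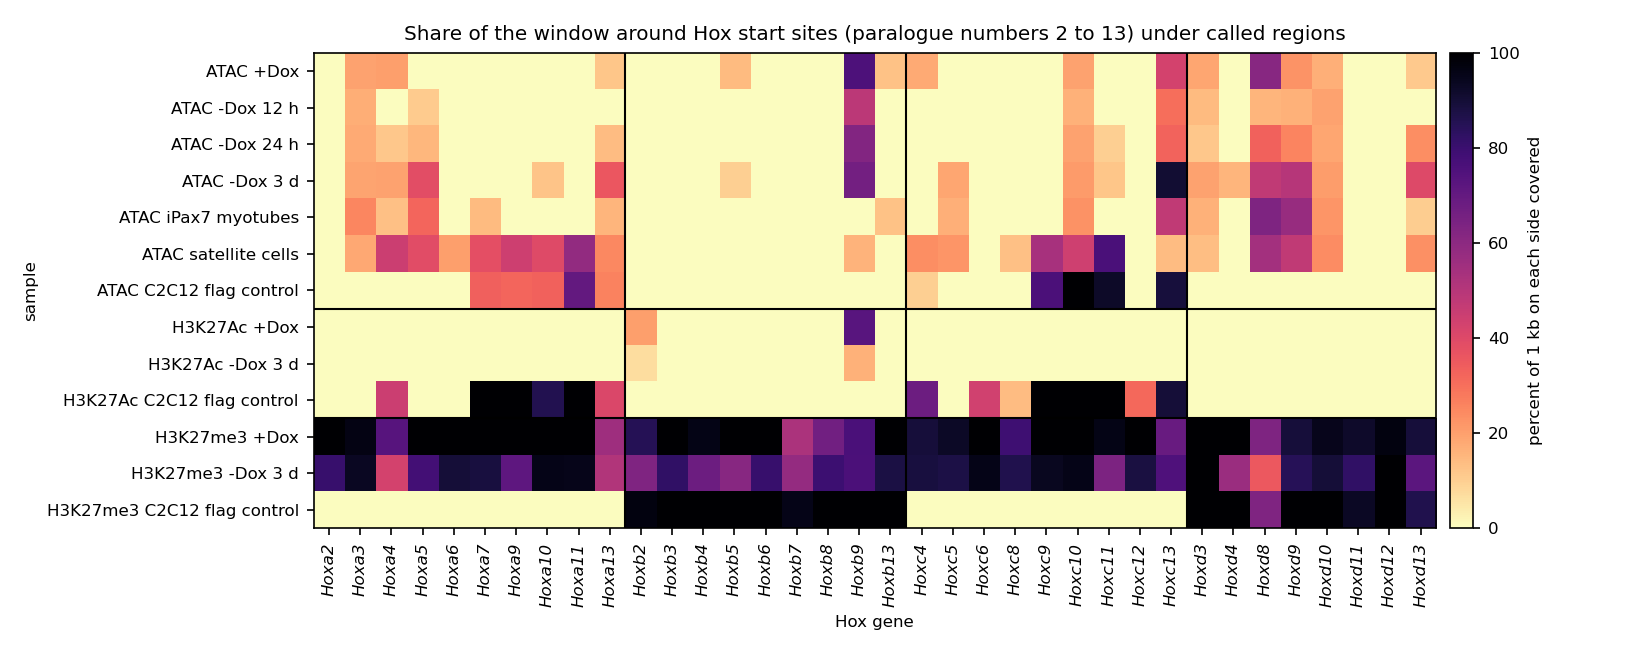
Percent of the window of 1 kb on each side of every Hox start of paralogue numbers 2 to 13 (columns, in cluster order) covered by ATAC-seq peaks, H3K27Ac and H3K27me3 regions (rows) on a scale from 0 to 100. The panel holds 13 of the 26 lists. In the ATAC-seq row of +Dox, Hoxb9 (75.6%) and Hoxd8 (61.2%) have the widest cover shown, and Hoxa and Hoxc starts are free of H3K27me3 in C2C12 flag control cells.

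The list of Pax7 sites left the clusters empty. Of the 2455 Pax7 sites, defined by the authors as more enriched with Dox than without, 0 lay inside a cluster and 0 within 100 kb of one. Within 500 kb there were 4, 2 near Hoxb and 2 near Hoxc. The nearest lay at chr11:95876777-95877481, 178 kb from the start of Hoxb13, and at chr15:102560686-102561350, 190 kb from the start of Hoxc13. The nearest sites to Hoxa and Hoxd were 1312 and 2439 kb away. The authors removed every peak also found in a replicate without Dox, and the paper considers an under-estimate of the sites likely. How many sites spans of this size would hold elsewhere in the genome was not computed, so these counts are a description only.

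Noncoding RNAs of the clusters were sparse. Of the 15 listed noncoding genes in the files 3 were tested, and 2 were higher in satellite cells than in +Dox, where 23.9% of all genes were. Both had no count in any iPax7 library and entered the test through the satellite cells alone, so their direction was fixed. Hotair, transcribed from within the Hoxc cluster on the opposite strand, had 301, 181 and 118 counts in satellite cells and 0 in all iPax7 libraries (edgeR quasi-likelihood adjusted p = 0.00145 against +Dox and 0.00402 against -Dox). Hoxa11os, antisense to Hoxa11, had 10, 135 and 1 counts, mostly in replicate 2 (edgeR quasi-likelihood adjusted p = 0.036 against +Dox), a call lost without any one of the +Dox libraries. Hotairm1 did not pass against +Dox (log2 fold change 1.06, edgeR quasi-likelihood adjusted p = 0.594). The use of strand in counting is not given in the sources used here, so reads of Hoxa11 and its antisense cannot be told apart.

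Of the 9 genes for partners of Hox proteins, 8 had counts in every satellite cell library and all 9 in every iPax7 library; the exception, Pbx4, had 0, 5 and 4 counts in satellite cells. Pbx and Meis proteins bind DNA together with Hox proteins, and Pknox proteins compete for or join the same complexes. All 9 were tested, and 2 were higher and 2 lower in satellite cells than in +Dox, near the 23.9% and 18.2% of all genes. Pknox1 was 2.69 log2 units higher (SE 0.401) and Pknox2 1.92 (SE 0.34), while Pbx3 (log2 fold change -2.53, SE 0.46) and Meis1 (log2 fold change -2.14, SE 0.36) were lower, with edgeR quasi-likelihood adjusted p of 0.000719, 0.00172, 0.00202 and 0.00134. After Dox removal 1 of 9 rose, against 4.63% of all genes, namely Pknox2 by 2.75 log2 units (SE 0.37, edgeR quasi-likelihood adjusted p = 0.00216). Against -Dox, with 20.4% of all genes higher and 17.2% lower, Pknox1 and Meis3 were higher (3.93 and 2.26 log2 units, SE 0.505 and 0.692) and Meis1 lower (log2 fold change -2.16, SE 0.385), with edgeR quasi-likelihood adjusted p of 0.000402, 0.0281 and 0.00215. The Meis3 call was lost without +Dox replicate 2 or either -Dox library.

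Of 18 genes that set or limit Hox domains, 9 were tested, and 4 were higher and 1 lower in satellite cells than in +Dox, beside 23.9% and 18.2% of all genes. Kmt2a, the H3K4 methyltransferase that keeps Hox genes active, was 2.38 log2 units higher (SE 0.288, edgeR quasi-likelihood adjusted p = 0.000229) and also higher than in -Dox (2.86 log2 units, SE 0.346, edgeR quasi-likelihood adjusted p = 0.000299). Cyp26a1 and Cyp26b1, which degrade retinoic acid, had 201, 15 and 539 and 130, 67 and 259 counts in satellite cells and 0 in +Dox (edgeR quasi-likelihood adjusted p = 0.00394 and 0.0068). In -Dox they had 3 and 16 and 19 and 0 counts. Both passed the filter through the satellite cells, so their direction was fixed, and both count among the 4. Rarb, a retinoic acid receptor, was 3.03 log2 units higher (SE 1.02, edgeR quasi-likelihood adjusted p = 0.0359), a call lost without +Dox replicate 1 or 2 or satellite cell replicate 1 or 3. Gmnn, an inhibitor of DNA replication licensing that can also bind Hox proteins, had 78.8 CPM in +Dox, 13.5 in -Dox and 2.95 in satellite cells and was lower in satellite cells than in +Dox, in -Dox than in +Dox and in satellite cells than in -Dox, with log2 fold changes of -4.74, -2.54 and -2.20 (edgeR quasi-likelihood adjusted p = 5.2e-05, 0.00871 and 0.00279), the second of which was lost without either -Dox library. The Cdx genes Cdx1, Cdx2 and Cdx4, activators of posterior Hox genes in the embryo, had no count in any iPax7 library. They had none in satellite cells either, apart from 2 counts of Cdx2 in replicate 2.

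Of 20 Polycomb and H3K27 demethylase genes, all tested, 8 were higher in satellite cells than in +Dox, beside 23.9% of all genes, the largest changes being those of Cbx7 (4.12 log2 units, SE 0.989), a chromodomain subunit that reads H3K27me3, and Kdm6b (4.05, SE 0.53), an H3K27 demethylase, with edgeR quasi-likelihood adjusted p of 0.00842 and 0.000348. Others were Ezh1 (1.56), Jarid2 (2.57), Phf1 (2.48), Rnf2 (1.15) and Kdm6a (1.69 log2 units), with edgeR quasi-likelihood adjusted p from 0.000331 to 0.0198. The calls of Ezh1 and Phf1 were lost without +Dox replicate 2 or satellite cell replicate 1, and that of Ezh1 also without +Dox replicate 3. Eed, a core subunit of Polycomb repressive complex 2, had a log2 fold change of -0.94, short of 2-fold (edgeR quasi-likelihood adjusted p = 0.00694). Ezh2, the methyltransferase of dividing cells, had 28.3, 15.1 and 25.7 CPM in +Dox, -Dox and satellite cells and passed none of the 3 tests. Between -Dox and +Dox the smallest adjusted p of the list was 0.117, for Eed (edgeR quasi-likelihood). Against -Dox 8 were again higher in satellite cells, beside 20.4% of all genes, Suz12 (1.44 log2 units) taking the place of Rnf2, and the calls of all but Jarid2 and Kdm6b were lost when a library was left out, with edgeR adjusted p of up to 0.225.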

How the data were processed

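RNA-seq, ATAC-seq and ChIP-seq were analysed from the files the authors deposited. The submitters' processing notes name mm9, Trimmomatic 0.32, Bowtie2 2.2, TopHat2 2.0 and HTSeq 0.6, and the gene annotation used for RNA-seq is not given in the sources used here. The deposited RNA values are raw counts per gene for each library. Reads aligned to several places were 7.11 to 7.60% of an iPax7 library and 23.6 to 30.7% of a satellite cell library, ambiguous reads 1.51 to 2.32% and reads on no gene at most 0.00309%. These rows were left out. The ATAC-seq narrowPeak files carry −log10 q values given by the authors with MACS2 2.0.10 after alignment with Bowtie2 2.2.6, removal of duplicates with Picard and a Tn5 shift, and the histone and Pax7 lists are intervals without a score. Histone replicates were merged by the authors before peak calling. The −log10 q values were used only to take the stronger peaks in 1 alternative.

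Counts were tested with edgeR 4.0.16 (R 4.3.3): TMM normalization, the default filter on low counts, glmQLFit and glmQLFTest over the 3 populations together, Benjamini-Hochberg adjustment over all 14836 genes tested, and a call at adjusted p under 0.05 with at least 2-fold. SEs are approximate, computed as |log2 fold change|/√F. Where a group had no count, no fitted fold change is given but a bound against 3 counts over the group. RPKM used TMM-scaled libraries and merged exons of GENCODE M1 (NCBIM37, the build of mm9); Hoxa3 has 2 models there, of which the one with the nearer start was used. The start site was the annotated one nearest to the start codon, since several Hox models read through from a neighbour. Of the 39 members 25 overlap another annotated gene, and the use of strand in counting is not given in the sources used here. On simulated counts for satellite cells against +Dox (14299 genes), 51 of 100 genes changed 4-fold and 78 of 100 changed 16-fold were recovered, and 4.44% of calls were false. The simulation left out genes with low mean counts, used the same spread for all groups and set no group to be without counts. These rates therefore do not cover Hox genes without a count in iPax7 cells. Replicates of a group differed by more than sampling noise. Some items, with the results and sequences that need them, are not reported here. The members, lists and markers were chosen with earlier results of these data known. Members with values in every library are those called in any comparison or at 1 RPKM or more throughout a population; the rest are given by range. The alternatives tried were other size factors, DESeq2 1.42.0, other filters and levels, 2 conditions alone, a replicate block, leaving out each library, other windows, overlaps and spans.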

Additional observations from a re-analysis of the deposited data

How the results depend on the processing

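Of 27 calls of single Hox genes, 17 passed the threshold in every alternative that gave a value. None changed direction, but most of the 27 set satellite cells against a group without a count. Their direction was fixed, so the lack of a reversal is no support for them. For satellite cells against +Dox, the count of 13 higher genes was 9 to 12 when a library was left out, 12 with DESeq2 and 9 with only the 2 conditions compared or a 1 CPM filter, and the count of 2 lower genes stayed at 2 in these. For -Dox against +Dox the count of 1 was 0 to 1 when a library was left out. For satellite cells against -Dox, the 9 higher genes were 7 to 10, and the 2 lower genes were 1 to 2 when a library was left out and 1 with only the 2 conditions compared.

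Replicate numbers appear in the file names alone. Deviations of same-numbered libraries correlated at -0.0487 to 0.0333. They were taken from means of 2 or 3 libraries of unlike cells, so whether the numbers pair samples cannot be decided from them. With the replicate block and only the 2 conditions compared, 8 Hox genes were higher and 1 lower in satellite cells than in +Dox, 1 rose after Dox removal, and 8 were higher and 2 lower in satellite cells than in -Dox. Libraries did not all correlate best with their own number.

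At 3 RPKM, 1 Hox gene was expressed in every satellite cell library. With peaks above the median −log10 q of their list, starts with an ATAC-seq peak numbered 5 in +Dox, 3 at 12 h, 7 at 24 h and 11 at 3 days without Dox, 10 in iPax7 myotubes, 14 in satellite cells, and 2, 8 and 6 in C2C12 myoblasts, Pax7-flag myoblasts and myotubes. A window of 2.5 kb gave 5 starts with H3K27Ac in +Dox. Spans wider by 10 kb on each side gave H3K27me3 shares of 5.99% (Hoxa) and 3.22% (Hoxc) in C2C12 flag control and 16.1% (Hoxa) and 4.86% (Hoxc) with Pax7-flag. The lower bounds without each satellite cell library were added after seeing the data. Pax7 sites numbered 4 within 500 kb, by construction. The cause of the other changes was not tested. Using any annotated start, chosen after seeing the data, moved no count of starts by over 1.5 times. The alternative of taking only the stronger histone regions was not run, since those lists hold no score.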
